A study of Mus musculus with 32 samples.

Results

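The genes described here are 43 imprinted genes of the mouse, listed by name, followed through 32 QuantSeq libraries of embryonic stem cells. The list covers 20 genes for which the maternal copy, and 23 for which the paternal copy, is known to be the expressed one, spread over 17 imprinted clusters or single loci. Each symbol was matched to its Ensembl identifier. Of the 43 genes, 41 had a row in the count tables of 31053 genes, and 38 of the 15280 genes that passed the filter on low counts were among them. Rian and Peg13 had no row and were not analysed here. Airn, Zim1 and Kcnk9 had 28, 17 and 0 reads in all libraries together and did not pass the filter.

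All libraries came from 1 cell line, C1, made from β-catenin−/− mouse embryonic stem cells (ESCs). Every group therefore lacks endogenous β-catenin and carries lentiviral constructs for an inducible fusion protein. The fusion joins a destabilising domain to mCherry and to β-catenin S33Y, a mutant that escapes degradation. The TRE3G promoter drives the fusion in the presence of doxycycline (dox) through an rtTA under the EF1a promoter, and trimethoprim (TMP) stabilises the protein. Per the methods for sequencing, pluripotent cells were kept in 2i/L, a serum-free medium with LIF and inhibitors of MEK and GSK3, whereas the sample labels describe serum and LIF. At day 0 the groups were C1 (48 h of 10 μM TMP alone, sorted as live cells), C1M and C1H (48 h of TMP and 100 ng/mL dox, sorted for middle or high mCherry). The sorted cells were then grown for 4 days in NDiff227 without 2i/L. These day 4 groups were C1T (from C1, with TMP alone), C1MV and C1HV (from C1M and C1H, with DMSO in place of the inducers), and C1MDT and C1HDT (from C1M and C1H, with dox and TMP kept throughout). Each of the 8 groups had 4 libraries that the labels call biological replicates. In comparisons with C1 or C1T, induction of the fusion, exposure to dox and sorting on mCherry went together, so their effects cannot be told apart. C1MDT and C1MV came from the same sorted fraction, as did C1HDT and C1HV. Within these pairs, induction and exposure to dox and TMP went together. C1T received TMP while C1MV and C1HV received DMSO.

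Imprinted genes are transcribed mainly from 1 parental copy. DNA methylation laid down in the egg or the sperm at imprinting control regions marks the parental origin, and after fertilisation the mark is protected by the zinc-finger proteins ZFP57 and ZFP445 with TRIM28 and is copied by DNMT1 and UHRF1. Most imprinted genes lie in clusters in which a noncoding RNA or an insulator keeps neighbouring genes silent on the other copy, and many of them act on growth, the placenta and the brain. Stem cells grown with 2i inhibitors are known to lose part of this methylation. The counts here sum both parental copies, so a higher count may come from either copy, and methylation was not measured. In such bulk samples, more cells that express a gene and more RNA per cell cannot be told apart.

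The libraries held 1366951 to 3648787 reads counted in genes (median 2402468), and the smallest of them sets the precision: 3 reads corresponded to 0.837 to 2.14 CPM (counts scaled to a common library size, with TMM factors). Values below are CPM for each library in the order of replicates 1 to 4. No library was a copy of another of its group (lowest chi-square per degree of freedom between replicates, 1.55), and since 3′ reads are counted, levels are compared between groups and not between genes. Ctnnb1, whose 3′ reads do not tell the fusion from what is left of the deleted gene, stood at 5.19 to 11 CPM in C1, 9.45 to 17.7 in C1M and 34.9 to 48.7 in C1H. At day 4 it stood at 7.18 to 12.4 CPM in C1T, at 6.9 to 12.1 and 4.13 to 8.6 after withdrawal (C1MV and C1HV) and at 25.4 to 34 and 28.2 to 36.3 with the inducers kept (C1MDT and C1HDT). The labelled cell type was checked with 9 pluripotency markers, which summed to 5717 to 6011 CPM in C1 and 889 to 1042 CPM in C1T, with Dppa3 at or under 3 reads in every library of both. In C1M and C1H they summed to 4382 to 4618 and 4431 to 4688 CPM, below every C1 library, and their part in the day 0 differences of the listed genes was not tested. All calls are at an edgeR quasi-likelihood adjusted p (Benjamini-Hochberg, over the 15280 genes) under 0.05, and log2 fold changes are printed with their standard error.

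At day 0 the induced fractions differed from C1 in 14 (C1M) and 16 (C1H) of the 38 tested genes. In C1M vs C1, 6 rose and 8 fell, while 26.3% of all genes were called. In C1H vs C1, 7 rose and 9 fell, while 25.9% of all genes were called. The genes with the largest called increases were Dio3, Phlda2 and Cdkn1c, and those with the largest called decreases were Peg10, Zdbf2 and Kcnq1ot1. Magel2 was also called higher in C1H, but it had 3 reads in C1, so the size of its increase depends on the prior count and was not ranked. Magel2 lost the call in C1H vs C1 without any one of C1 replicates 1, 3 and 4 and C1H replicate 3 (adjusted p from 0.103 to 0.133), and also with DESeq2. C1H was above C1M in 1 gene, Igf2r (0.40 ± 0.11, adjusted p = 0.0341), where 0.713% of all genes were higher and 1.77% were called. Igf2r lost the call in C1H vs C1M without any one of C1M replicates 1, 2, 3 and 4 and C1H replicates 1, 2 and 3 (adjusted p from 0.05 to 0.246). The median log2 fold change of the 38 genes was 0.028 in C1M vs C1 and -0.012 in C1H vs C1, beside 0.056 and 0.041 for all genes tested.

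Over the 4 days without 2i/L most of the genes moved, and more rose than fell in each of the 5 comparisons of day 4 cells with the day 0 cells they came from. In C1T vs C1, 18 rose and 9 fell, where 24.4% of all genes rose, 24.9% fell and 49.2% were called in all. In C1MV vs C1M, 21 rose and 6 fell (all genes, 22% and 23.8%, 45.8% in all). In C1MDT vs C1M, 20 rose and 8 fell (all genes, 24.5% and 27.9%, 52.4% in all). In C1HV vs C1H, 20 rose and 8 fell (all genes, 22% and 25.1%, 47% in all). In C1HDT vs C1H, 21 rose and 8 fell (all genes, 26.3% and 29.4%, 55.7% in all). The median log2 fold change of the 38 genes lay between 0.41 in C1HV vs C1H and 0.75 in C1T vs C1, beside -0.056 and 0.0088 for all genes. The comparisons C1T vs C1, C1MDT vs C1M and C1HDT vs C1H share no library. In all 3 of them 15 genes rose (Cdkn1c, Dlk1, Gnas, Grb10, H19, Impact, Meg3, Mest, Mirg, Mkrn3, Nnat, Peg3, Snrpn, Usp29 and Zdbf2), which is 39.5% of those tested, where 13.8% of all genes did. In the same 3 comparisons 4 genes fell (Dio3, Igf2r, Plagl1 and Zrsr1), 10.5% against 14.9% of all genes. Asb4, Commd1, Nap1l5 and Phlda2 passed the test in none of the 3, 10.5% against 25.8% of all genes.

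**Figure D1:**
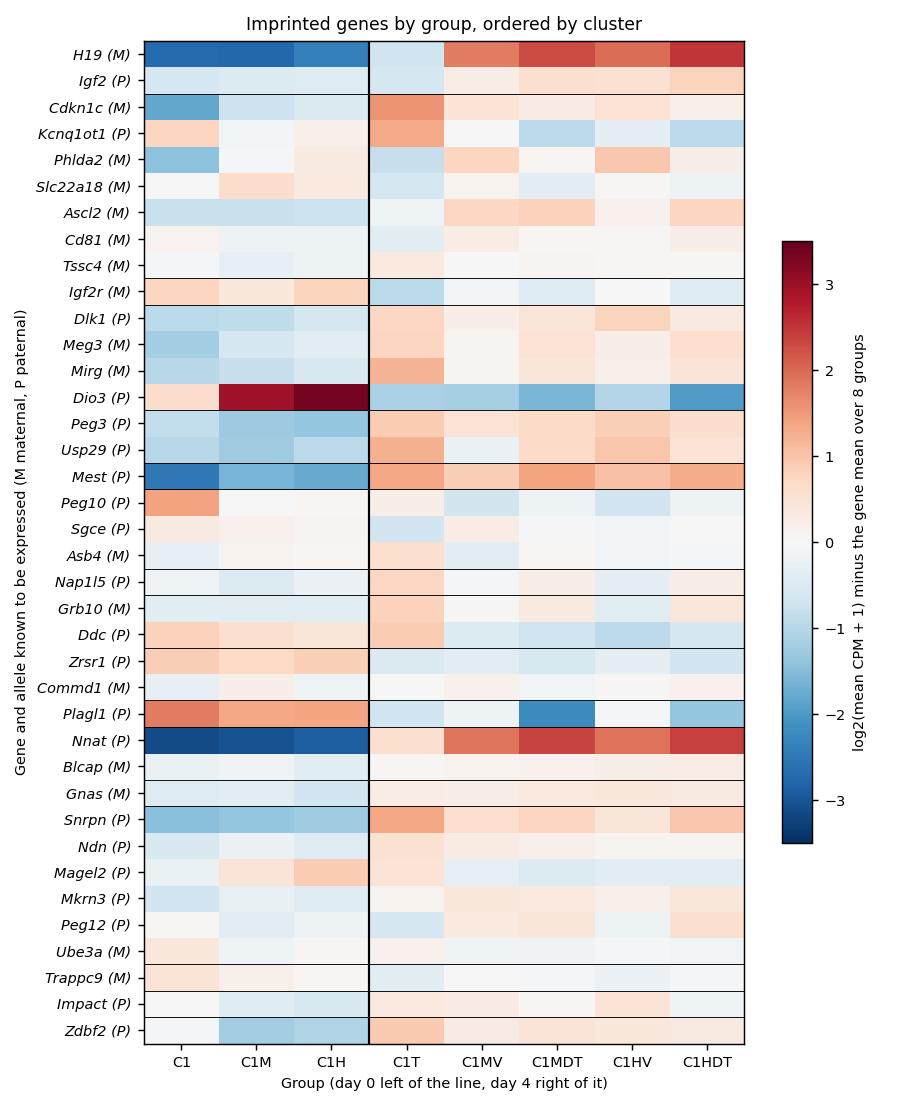
Mean level of the 38 tested imprinted genes (rows, ordered by cluster, with the allele known to be expressed) in the 8 groups (columns), as log2(mean CPM + 1) minus the mean of the gene over the groups. Day 0 stands left of the vertical line, where Dio3 is the darkest red in C1M and C1H, and H19 and Nnat change from blue at day 0 to red in the induced fractions at day 4.

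In the H19/Igf2 cluster, H19 rose over the 4 days and Igf2 was read almost only in the induced fractions at day 4. H19 (ENSMUSG00000000031, chr7:142575529-142578143, minus strand, GRCm38) is a maternally expressed noncoding RNA that lies downstream of Igf2 and shares its enhancers. At day 0 it was at 0.419, 2.26, 0.519 and 0.479 CPM in C1, 0.424, 0.709, 2.28 and 0 CPM in C1M and 0.341, 1.39, 2.2 and 1.68 CPM in C1H, with the highest C1 library apart from the others of its group. At day 4 H19 stood at 4.8, 6.24, 8.58 and 7.18 CPM in C1T, 33, 52.1, 58.9 and 29.9 CPM in C1MV and 64.6, 65.2, 57.2 and 53.6 CPM in C1MDT. H19 was at 63.5, 42.1, 47.7 and 38.4 CPM in C1HV and 68, 93, 51.5 and 66 CPM in C1HDT. All 16 induced libraries at day 4 lay above the 4 C1T libraries, and these above every day 0 library. The rise in C1T vs C1 was 2.88 ± 0.61 (adjusted p = 0.000113). In the induced fractions, each against its own day 0, it was 5.50 ± 0.37 (C1MV) and 5.08 ± 0.34 (C1HV) after withdrawal and 5.92 ± 0.35 (C1MDT) and 5.60 ± 0.31 (C1HDT) with the inducers kept (edgeR adjusted p of at most 6.29e-17). Against C1T, H19 was higher by 2.74 ± 0.27 in C1MV and 3.37 ± 0.25 in C1HDT. The difference between the change over 4 days in C1MDT and that in C1T passed the test (3.04 ± 1.11, adjusted p = 0.0385), and those of the other 3 groups, from 2.20 to 2.72, did not. H19 lost the call for the change of C1MDT against that of C1T without any one of C1 replicates 2, 3 and 4, C1M replicates 1 and 2 and C1T replicates 1 and 2 (adjusted p from 0.0514 to 0.294).

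The H19 transcript also holds a hairpin whose mature microRNAs are known from RefSeq (GRCm38.p6), and these are shown because their host RNA changed. The microRNAs themselves were not measured in these libraries. Capitals mark the seed, bases 2 to 8, which pairs with targets.
mmu-miR-675-5p: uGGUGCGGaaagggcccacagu
mmu-miR-675-3p: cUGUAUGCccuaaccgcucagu

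Igf2 (ENSMUSG00000048583, chr7:142650766-142666816, minus strand), the paternally expressed fetal growth factor, was near the limit of detection. It had 0, 1, 1 and 0 reads over the 4 libraries of C1, C1M, C1H and C1T, and 9, 13, 9 and 16 reads in C1MV, C1MDT, C1HV and C1HDT. Its level was 0, 1.12, 2.18 and 0 CPM in C1MV, 1.73, 1.11, 1.4 and 0.688 in C1MDT, 0.516, 2.84, 0.86 and 0.65 in C1HV and 1.7, 2.86, 1.26 and 0.681 in C1HDT. Igf2 passed the filter on low counts only through these 4 groups, so its calls against C1T and day 0, which enter the counts of called genes, are not given as a result. No fold is given, since C1T had no read and the induced groups lay near the value of 3 reads per library. Exons of Igf2 overlap those of Gm49394 on the same strand, so reads may be split, and those of the antisense Igf2os. Whether counting used strand was not given in the sources used here.

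Markers of another cell type moved with these 2 genes. The 13 extraembryonic endoderm markers (Gata4, Gata6, Dab2 and others) summed to 752 to 958 CPM in C1 and 817 to 1339 CPM in C1T. They summed to 1592 to 2075 CPM in C1MV and 1639 to 1900.5 CPM in C1HV, and to 1999.5 to 2198 CPM in C1MDT and 1919 to 2249 CPM in C1HDT. Of the 12 tested, 10 were higher in C1MV and 10 in C1HV than in C1T, where 15.4% and 13.7% of all genes were higher. Afp was at or under 3 reads in every library, Sox7 and Cubn in every library of C1 and C1T, and Sox17 in every library of C1T. The part of these cells in the H19 and Igf2 values was not tested.

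The Kcnq1ot1 cluster on distal chromosome 7 moved in both directions at day 0. Cdkn1c (ENSMUSG00000037664, chr7:143458339-143461050, minus strand), which encodes the cyclin-dependent kinase inhibitor p57, was at 3.36, 3.96, 3.11 and 1.91 CPM in C1, 10.6, 6.03, 6.84 and 6.6 CPM in C1M and 10.2, 8.36, 6.59 and 10.9 CPM in C1H. It rose by 1.26 ± 0.33 in C1M (adjusted p = 0.00185) and 1.54 ± 0.32 in C1H (adjusted p = 5.9e-05), and the C1 libraries lay below all induced ones. At day 4 Cdkn1c stood at 48.9, 46.6, 32.9 and 36.5 CPM in C1T, 18.5, 18.4, 18.9 and 19.3 CPM in C1MV and 19, 16.9, 13.4 and 16.2 CPM in C1MDT. Cdkn1c was at 17, 24.4, 19.8 and 14.3 CPM in C1HV and 17, 11.4, 11.7 and 19.4 CPM in C1HDT. The order was turned at this day: the lowest C1T library was above every induced library, and the difference from C1T was -1.15 ± 0.18 (C1MV) and -1.12 ± 0.19 (C1HV) after withdrawal and -1.37 ± 0.18 (C1MDT) and -1.45 ± 0.18 (C1HDT) with the inducers kept (edgeR adjusted p of at most 2.07e-07). The rise over 4 days was 3.74 ± 0.26 in C1T and between 0.75 and 1.33 in the induced fractions. Cdkn1c overlaps the antisense gene Gm44732.

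Phlda2 (ENSMUSG00000010760, chr7:143501545-143503150, minus strand), a maternally expressed gene that restrains placental growth, was at 3.36, 4.53, 2.08 and 3.35 CPM in C1, 15.7, 7.09, 11.1 and 8.25 CPM in C1M and 11.6, 16, 14.3 and 13 CPM in C1H. It rose with induction at day 0 by 1.64 ± 0.32 in C1M (adjusted p = 1.72e-05) and 2.04 ± 0.31 in C1H (adjusted p = 1.87e-08). At day 4 Phlda2 stood at 6.71, 4.16, 7.62 and 4.57 CPM in C1T, 14.9, 19.1, 26.5 and 15 CPM in C1MV and 14.4, 7, 11.4 and 12.4 CPM in C1MDT. Phlda2 was at 24.3, 19.3, 24.1 and 18.9 CPM in C1HV and 17, 12.4, 9.63 and 11.6 CPM in C1HDT. Phlda2 was above C1T in all 4 induced groups, by 1.73 ± 0.26 (C1MV) and 1.91 ± 0.27 (C1HV) after withdrawal and 0.93 ± 0.28 (C1MDT) and 1.13 ± 0.28 (C1HDT) with the inducers kept (edgeR adjusted p of at most 0.00536). Where the inducers were kept it was lower than where they were withdrawn, with log2 fold changes of -0.79 ± 0.22 (adjusted p = 0.00684) in the middle and -0.77 ± 0.22 (adjusted p = 0.00679) in the high fraction. Phlda2 lost the call in C1MDT vs C1MV without any one of C1MV replicate 3 and C1MDT replicate 2 (adjusted p from 0.065 to 0.14).

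Kcnq1ot1 (ENSMUSG00000101609, chr7:143203458-143296549, minus strand) is the paternally expressed noncoding RNA that silences the cluster in cis, and it was lower in the induced fractions on both days. At day 0 it was at 107, 136, 108 and 115 CPM in C1, 60.2, 51.1, 73.6 and 72.6 CPM in C1M and 78, 85.7, 76.5 and 71.8 CPM in C1H. At day 4 Kcnq1ot1 stood at 178, 177, 183 and 162 CPM in C1T, 49.2, 57.7, 58.1 and 106 CPM in C1MV and 48.4, 32.8, 29.9 and 33 CPM in C1MDT. Kcnq1ot1 was at 66.1, 72.8, 46.9 and 33.2 CPM in C1HV and 45.9, 26.7, 35.2 and 36.4 CPM in C1HDT. In both C1MV and C1MDT, 1 library stood well above the others of its group, and no induced library reached the lowest C1 library at day 0 or the lowest C1T library at day 4. The difference from C1 was -0.85 ± 0.19 in C1M (adjusted p = 0.00131) and -0.57 ± 0.19 in C1H (adjusted p = 0.0235). Kcnq1ot1 lost the call in C1H vs C1 without any one of C1 replicate 2 and C1H replicate 4 (adjusted p from 0.0581 to 0.0833), and also with scaling by library size alone. That from C1T was -1.44 ± 0.19 (C1MV) and -1.67 ± 0.20 (C1HV) after withdrawal and -2.33 ± 0.20 (C1MDT) and -2.26 ± 0.20 (C1HDT) with the inducers kept (edgeR adjusted p of at most 7.7e-07). It lies antisense within Kcnq1, so without strand information reads of both may be joined.

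Ascl2, Cd81 and Tssc4 of this cluster are expressed from the maternal copy alone mainly in the placenta. Ascl2, a transcription factor of the trophoblast lineage, was at 3.36, 0.566, 1.56 and 3.83 CPM in C1, 2.55, 1.06, 1.63 and 4.13 CPM in C1M and 2.72, 2.79, 2.2 and 1.68 CPM in C1H. At day 4 Ascl2 stood at 5.28, 4.99, 2.38 and 3.91 CPM in C1T, 10.1, 10.5, 6.18 and 7.13 CPM in C1MV and 12.1, 7.74, 9.21 and 6.53 CPM in C1MDT. Ascl2 was at 4.13, 5.69, 5.59 and 5.85 CPM in C1HV and 7.82, 10.0, 7.96 and 8.51 CPM in C1HDT. It rose over the 4 days in each induced fraction, from 1.14 ± 0.41 in C1HV to 1.92 ± 0.36 in C1MDT, while C1T vs C1 (0.77 ± 0.44, adjusted p = 0.146) did not pass. None of the 4 differences from the change in C1T passed the edgeR test (adjusted p = 0.174 for C1MV, 0.733 for C1HV, 0.155 for C1MDT and 0.194 for C1HDT). The 7 trophoblast markers (Cdx2, Elf5, Eomes and others) summed to 244 to 256 CPM in C1M and 53.9 to 76.1 CPM in C1MDT, with Elf5 at or under 3 reads in every library, and their part in the Ascl2 values was not tested. Cd81, a tetraspanin, had group means from 131 ± 11.5 CPM in C1T to 207 ± 15.8 CPM in C1MV and log2 fold changes of -0.54 ± 0.088 in C1T vs C1 and 0.44 ± 0.083 in C1MV vs C1M, with a tested difference of 0.98 ± 0.12 (adjusted p = 1.18e-11). Tssc4 had group means from 42.8 ± 6.66 CPM in C1M to 67.1 ± 3.25 CPM in C1T. Slc22a18, a transporter-like gene imprinted more widely, was at 3.82, 3.9, 3.91 and 4.95 CPM in C1M and 2.31, 1.47, 0.558 and 2.06 CPM in C1MDT and fell only in C1MDT vs C1M among the 20 comparisons (log2 fold change -1.44 ± 0.49, adjusted p = 0.00944). Slc22a18 lost the call in C1MDT vs C1M without C1MDT replicate 3 (adjusted p = 0.0732). In its other groups it was at 1.26, 2.26, 4.15 and 1.91 CPM in C1, 5.11, 4.53, 1.47 and 1.68 CPM in C1H and 2.4, 1.25, 0.476 and 0.652 CPM in C1T, and 2.82, 4.5, 1.82 and 1.43 CPM in C1MV, 1.55, 2.27, 2.58 and 3.25 CPM in C1HV and 1.7, 3.82, 1.67 and 0.681 CPM in C1HDT.

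Igf2r (ENSMUSG00000023830, chr17:12682406-12769664, minus strand), the maternally expressed receptor that takes IGF2 to the lysosome, fell over the 4 days in every fraction. It was at 95.2, 89.4, 74.7 and 80.4 CPM in C1, 62.4, 67.7, 65.2 and 63.5 CPM in C1M and 98.7, 82.6, 82.8 and 77.7 CPM in C1H. At day 4 Igf2r stood at 27.8, 22.5, 28.1 and 22.8 CPM in C1T, 40.3, 45.7, 48.3 and 51.3 CPM in C1MV and 25.4, 40.2, 39.1 and 40.2 CPM in C1MDT. Igf2r was at 41.3, 60.8, 46 and 54.6 CPM in C1HV and 29.6, 50.1, 34.8 and 33.7 CPM in C1HDT. The log2 fold change was -1.74 ± 0.14 in C1T, and in the induced fractions -0.49 ± 0.12 (C1MV) and -0.77 ± 0.12 (C1HV) after withdrawal and -0.80 ± 0.13 (C1MDT) and -1.23 ± 0.12 (C1HDT) with the inducers kept. The fall was smaller than in C1T, with tested differences of 1.25 ± 0.19 (C1MV) and 0.98 ± 0.19 (C1HV) after withdrawal and 0.94 ± 0.19 (C1MDT) and 0.51 ± 0.19 (C1HDT) with the inducers kept (edgeR adjusted p of at most 0.0337). Igf2r lost the call for the change of C1HDT against that of C1T without any one of C1 replicates 1 and 2, C1H replicates 2, 3 and 4, C1T replicates 2 and 4 and C1HDT replicate 2 (adjusted p from 0.0515 to 0.191), and also with scaling by library size alone and with DESeq2. Airn, the paternally expressed antisense RNA that silences Igf2r in cis, had at most 3 reads in any library.

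The Dlk1-Dio3 cluster on chromosome 12 held the largest called change of the list at day 0. Dio3 (ENSMUSG00000075707, chr12:110279068-110281097, plus strand), which encodes the type 3 deiodinase that inactivates thyroid hormone, was at 5.87, 9.05, 10.9 and 8.14 CPM in C1, 45.8, 45.4, 49.5 and 51.2 CPM in C1M and 63.3, 62, 61.2 and 63.4 CPM in C1H. The 3 groups did not overlap, and Dio3 was 5.71-fold higher in C1M (log2 fold change 2.51 ± 0.21, adjusted p = 1.67e-21) and 7.44-fold higher in C1H (log2 fold change 2.89 ± 0.20, adjusted p = 3.76e-27). The comparison of C1H with C1M did not pass the test for Dio3. It passed only when those groups alone were fitted (log2 fold change 0.383, edgeR adjusted p = 0.0218). At day 4 Dio3 stood at 0.959, 1.66, 2.86 and 1.96 CPM in C1T, 2.42, 1.12, 3.63 and 0 CPM in C1MV and 1.15, 0.737, 0.558 and 1.72 CPM in C1MDT. Dio3 was at 1.03, 4.55, 2.58 and 0 CPM in C1HV and 0.68, 0.477, 0.419 and 0.681 CPM in C1HDT. Dio3 thus fell in every fraction, with a log2 fold change of -2.15 ± 0.39 in C1T and of -4.53 ± 0.26 (C1MV), -4.85 ± 0.27 (C1HV) and -5.50 ± 0.29 (C1MDT) against their own day 0 (edgeR adjusted p of at most 7.81e-07). In C1HDT no library had more than 2 reads, so the fall from C1H was at least 52.8-fold, with the value of 3 reads per library as the limit. The differences of these falls from that in C1T were -2.38 ± 0.60, -3.36 ± 0.65 and -2.71 ± 0.62 in C1MV, C1MDT and C1HV (edgeR adjusted p of at most 0.00119). At day 4 Dio3 had only 15, 19, 11 and 16 reads in C1T, C1MV, C1MDT and C1HV. These levels lay near the value of 3 reads per library, so the sizes of the falls and of their differences depend on the prior count.

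The promoter of Dio3 is shown because its transcript had the largest called change at day 0 (RefSeq, GRCm38.p6, chr12:110278980-110279279, plus strand, 250 bases before to 50 after the start). Capitals mark each CG, the dinucleotide that can be methylated: there were 25, where the median of 32851 promoter windows was 7 and 81.6% of windows had fewer. The letters CTTTGAT and CTTTGAA, cores bound by the TCF/LEF factors that β-catenin joins, were found on neither strand of this window. They occurred in 3.73% and 5.14% of all windows, and in 0 and 2 (Ddc and Peg12) of the 35 listed genes with a promoter sequence.
Dio3 promoter: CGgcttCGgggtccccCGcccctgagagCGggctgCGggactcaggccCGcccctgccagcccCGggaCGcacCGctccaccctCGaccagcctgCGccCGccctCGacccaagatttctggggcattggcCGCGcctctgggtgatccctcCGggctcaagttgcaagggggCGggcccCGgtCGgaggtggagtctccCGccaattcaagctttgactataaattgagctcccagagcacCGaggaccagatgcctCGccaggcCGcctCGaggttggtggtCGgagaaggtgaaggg

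**Figure D2:**
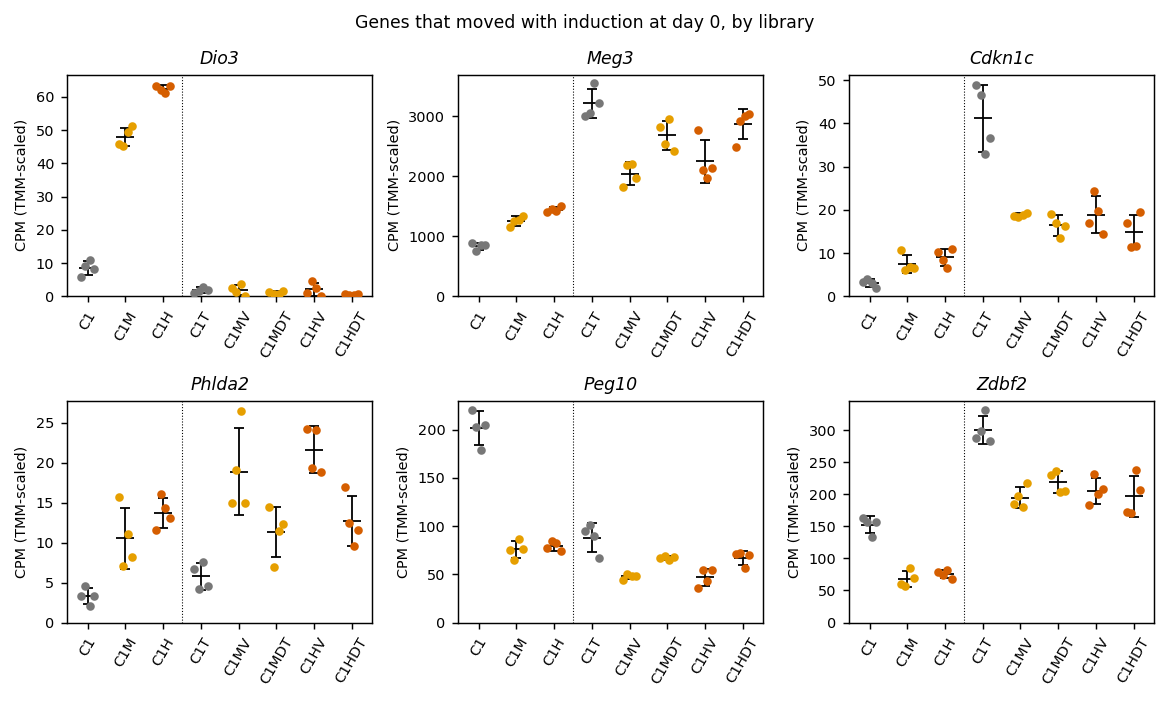
CPM of 6 imprinted genes in every library (points, 4 per group, grey without induction, orange for the middle and red for the high fraction), with the mean and SD of each group as bars and day 0 left of the dotted line. Dio3 is near 0 at day 4 and reaches 61.2 to 63.4 CPM in C1H, and Peg10 and Zdbf2 are lower in C1M and C1H than in C1.

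The maternally expressed noncoding RNAs of the same cluster moved in the other direction over time. Meg3 (ENSMUSG00000021268, chr12:109541001-109571726, plus strand), with a tumour-suppressing activity reported in other cells, took 27.3 to 57.5% of the reads of all listed genes in a library. It was at 884, 751, 851 and 849 CPM in C1, 1158, 1251, 1270.0 and 1345 CPM in C1M and 1407, 1454, 1415 and 1497 CPM in C1H. This put the groups in the order C1, C1M, C1H without overlap, and Meg3 rose by 0.59 ± 0.077 in C1M (adjusted p = 1.03e-08) and 0.79 ± 0.077 in C1H (adjusted p = 1.16e-12). The comparison of C1H with C1M did not pass the test (log2 fold change 0.20 ± 0.076, adjusted p = 0.201). At day 4 Meg3 stood at 3011, 3063, 3556 and 3228 CPM in C1T, 1813, 2184, 2209 and 1978 CPM in C1MV and 2822, 2533, 2948 and 2424 CPM in C1MDT. Meg3 was at 2771, 2110.1, 1972 and 2142 CPM in C1HV and 2496, 2929.7, 2999 and 3046 CPM in C1HDT. Meg3 thus rose by 1.95 ± 0.079 in C1T and by 0.70 ± 0.076 (C1MV) and 0.64 ± 0.076 (C1HV) after withdrawal and 1.09 ± 0.076 (C1MDT) and 0.99 ± 0.076 (C1HDT) with the inducers kept. These rises were smaller than that in C1T, with tested differences from -1.31 ± 0.11 in C1HV to -0.85 ± 0.11 in C1MDT (edgeR adjusted p of at most 4.93e-09).

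Mirg (ENSMUSG00000097391, chr12:109729764-109749460, plus strand), the RNA that holds the large microRNA array of the cluster, was also highest in C1T at day 4. It was at 59.1, 58.8, 68.5 and 49.8 CPM in C1, 58.1, 61.3, 78.5 and 68.9 CPM in C1M and 79, 77.7, 80.9 and 77.7 CPM in C1H. At day 4 Mirg stood at 269.5, 256, 259 and 282 CPM in C1T, 125, 127, 113 and 138 CPM in C1MV and 158, 139.6, 182 and 145 CPM in C1MDT. Mirg was at 139, 131, 125 and 131 CPM in C1HV and 156, 134, 169.6 and 181 CPM in C1HDT. The C1T libraries lay above all others, and the difference from C1T was -1.10 ± 0.089 (C1MV) and -1.02 ± 0.09 (C1HV) after withdrawal and -0.77 ± 0.086 (C1MDT) and -0.73 ± 0.086 (C1HDT) with the inducers kept (edgeR adjusted p of at most 6.44e-13). Over the 4 days Mirg rose by 2.17 ± 0.099 in C1T and by 0.74 to 1.22 in the induced fractions. The ratio of Meg3 to Mirg reads was 12.1 ± 1.16 (SD, n = 4) in C1T and from 16.4 ± 2.48 (C1MV) to 18.1 ± 2.63 (C1HDT) in the induced groups at day 4.

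Mirg spans 14 hairpins with 26 mature microRNAs in RefSeq, on its own strand, and 2 of them share a seed among those found in the listed genes. They are shown with the seed in capitals, since microRNAs with 1 seed can pair with the same sites.
mmu-miR-453: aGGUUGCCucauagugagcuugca
mmu-miR-496a-5p: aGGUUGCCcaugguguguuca

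Dlk1 (ENSMUSG00000040856, chr12:109452823-109463336, plus strand), a transmembrane protein related to Notch ligands and expressed from the paternal copy, was at 4.61, 1.7, 1.56 and 2.39 CPM in C1, 1.7, 2.13, 3.26 and 3.71 CPM in C1M and 2.72, 2.79, 4.03 and 4.62 CPM in C1H. At day 4 Dlk1 stood at 9.59, 5.83, 14.3 and 11.7 CPM in C1T, 6.04, 9, 7.63 and 5.7 CPM in C1MV and 6.34, 7, 11.2 and 8.25 CPM in C1MDT. Dlk1 was at 8.78, 10.2, 12 and 12.4 CPM in C1HV and 6.12, 6.68, 8.37 and 8.85 CPM in C1HDT. The day 4 libraries lay above those of their own fraction at day 0, with rises from 1.09 ± 0.33 in C1HDT to 1.91 ± 0.36 in C1T (edgeR adjusted p of at most 0.00261). None of the 4 comparisons with C1T passed the test for Dlk1 (-0.49 to 0.089). Of the 3 tested genes within 200 kb that are not listed, 2 rose and 1 fell in C1T vs C1, and 1 fell in each of the other 4 comparisons over time. Of all genes, 49.2% were called in C1T vs C1 and 45.8 to 55.7% in the other 4, and 3 genes are too few to set against these shares.

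In the Peg3 cluster both tested genes rose over the 4 days. Peg3 (ENSMUSG00000002265, chr7:6703892-6730431, minus strand), a zinc-finger protein expressed from the paternal copy, was at 28.9, 24.9, 22.8 and 19.6 CPM in C1, 22.1, 13.8, 15.6 and 19.8 CPM in C1M and 17.7, 15.3, 12.5 and 21.4 CPM in C1H. At day 4 Peg3 stood at 79.6, 90.3, 95.3 and 71.1 CPM in C1T, 51.2, 66, 54.9 and 84.1 CPM in C1MV and 72.6, 69.3, 62.2 and 83.9 CPM in C1MDT. Peg3 was at 76.9, 90.4, 77.8 and 74.1 CPM in C1HV and 65.3, 77.8, 64.9 and 67.4 CPM in C1HDT. No day 4 library overlapped with day 0, and the rise was between 1.80 ± 0.14 in C1T and 2.26 ± 0.15 in C1HV (edgeR adjusted p of at most 8.66e-23). Usp29, a deubiquitinating enzyme, was at 2.1, 0.566, 1.04 and 1.44 CPM in C1, 1.7, 1.06, 0.326 and 0.413 CPM in C1M and 0.681, 0.348, 1.83 and 2.52 CPM in C1H. At day 4 Usp29 stood at 9.59, 6.66, 14.3 and 7.83 CPM in C1T, 1.61, 2.62, 1.09 and 5.7 CPM in C1MV and 2.88, 8.84, 5.02 and 7.57 CPM in C1MDT. Usp29 was at 9.81, 7.39, 6.45 and 7.15 CPM in C1HV and 6.12, 3.82, 6.28 and 4.42 CPM in C1HDT. Its rise was 2.79 ± 0.46 in C1T, and in the induced fractions 1.46 ± 0.59 (C1MV) and 2.53 ± 0.45 (C1HV) after withdrawal and 2.81 ± 0.48 (C1MDT) and 1.97 ± 0.46 (C1HDT) with the inducers kept. Usp29 lost the call in C1MV vs C1M without any one of C1M replicates 3 and 4 and C1MV replicates 2 and 4 (adjusted p from 0.0718 to 0.196), and also when only those groups were fitted. Usp29 overlaps the antisense gene Zim3.

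Mest (ENSMUSG00000051855, chr6:30723547-30748465, plus strand), an enzyme of the α/β-hydrolase fold expressed from the paternal copy, rose with induction at day 0 and over time. It was at 5.87, 6.22, 7.78 and 2.39 CPM in C1, 11.9, 10.6, 15 and 6.6 CPM in C1M and 9.19, 11.8, 6.96 and 11.8 CPM in C1H. The difference from C1 was 1.02 ± 0.29 in C1M (adjusted p = 0.00554) and 0.84 ± 0.30 in C1H (adjusted p = 0.0285), although single libraries overlapped. Mest lost the call in C1H vs C1 without any one of C1 replicates 1 and 4 and C1H replicates 2 and 4 (adjusted p from 0.0543 to 0.151). At day 4 Mest stood at 103, 110.3, 90.1 and 72.4 CPM in C1T, 65.7, 67.1, 54.5 and 77.7 CPM in C1MV and 90.5, 100.2, 103 and 87 CPM in C1MDT. Mest was at 80.6, 84.7, 62.8 and 70.9 CPM in C1HV and 77.8, 74.4, 118 and 91.2 CPM in C1HDT. It rose by 4.09 ± 0.21 in C1T, and in the induced fractions by 2.54 ± 0.18 (C1MV) and 2.90 ± 0.18 (C1HV) after withdrawal and 3.08 ± 0.17 (C1MDT) and 3.18 ± 0.17 (C1HDT) with the inducers kept. The rises were smaller than that in C1T, with tested differences of -1.56 ± 0.32 (C1MV) and -1.19 ± 0.33 (C1HV) after withdrawal and -1.01 ± 0.32 (C1MDT) and -0.91 ± 0.32 (C1HDT) with the inducers kept (edgeR adjusted p of at most 0.0291). Mest lost the call for the change of C1MDT against that of C1T without any one of C1 replicate 4 and C1M replicate 3 (adjusted p from 0.0696 to 0.0745). Mest lost the call for the change of C1HDT against that of C1T without any one of C1 replicate 4 and C1H replicates 2 and 4 (adjusted p from 0.0713 to 0.134). At day 4 it was lower than in C1T in C1MV (log2 fold change -0.54 ± 0.13, adjusted p = 0.000836) and C1HV (log2 fold change -0.35 ± 0.13, adjusted p = 0.0401), while C1MDT (log2 fold change 0.0076 ± 0.13, adjusted p = 0.976) and C1HDT (log2 fold change -0.073 ± 0.13, adjusted p = 0.704) did not pass the test. Mest lost the call in C1HV vs C1T without any one of C1T replicates 1, 2 and 3 and C1HV replicates 3 and 4 (adjusted p from 0.0538 to 0.215), and also with scaling by library size alone and with DESeq2. Mest overlaps Copg2 on the other strand and carries an intronic microRNA hairpin, whose mature forms are shown with the seed in capitals.
mmu-miR-335-5p: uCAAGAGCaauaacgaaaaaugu
mmu-miR-335-3p: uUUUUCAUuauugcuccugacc

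Peg10 (ENSMUSG00000092035, chr6:4747306-4760517, plus strand), a gene derived from a retrotransposon and needed for the placenta, was the listed gene with the largest called fall at day 0. It was at 221, 203, 178 and 205 CPM in C1, 75.1, 65.2, 86.7 and 75.9 CPM in C1M and 77, 84.3, 82.4 and 73.9 CPM in C1H, with no overlap between C1 and the induced fractions (-1.41 ± 0.098, adjusted p = 6.9e-27 in C1M, and -1.35 ± 0.098, adjusted p = 1.18e-25 in C1H). At day 4 Peg10 stood at 95, 101, 90.1 and 66.5 CPM in C1T, 44.3, 49.8, 48.3 and 48.5 CPM in C1MV and 66.9, 69.3, 64.5 and 68.1 CPM in C1MDT. Peg10 was at 36.1, 54, 43.4 and 54 CPM in C1HV and 71, 71.6, 56.5 and 70.1 CPM in C1HDT. Its log2 fold change was -1.18 ± 0.1 in C1T vs C1, and it lay below C1T in all 4 induced groups, with log2 fold changes of -0.90 ± 0.12 (C1MV) and -0.94 ± 0.12 (C1HV) after withdrawal and -0.41 ± 0.11 (C1MDT) and -0.40 ± 0.11 (C1HDT) with the inducers kept (edgeR adjusted p of at most 0.00151). It was higher where the inducers were kept than where they were withdrawn (0.49 ± 0.12, adjusted p = 0.000857 in the middle and 0.54 ± 0.12, adjusted p = 0.000322 in the high fraction). Sgce, which encodes ε-sarcoglycan and lies next to Peg10 on the other strand, ranged from 5.26 ± 2.17 CPM in C1T to 11.3 ± 3.64 CPM in C1 and fell in C1T vs C1 (log2 fold change -1.03 ± 0.31, adjusted p = 0.00313). Asb4 had 12 reads in C1T and at most 8 in any other group, and passed no test.

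Zdbf2 (ENSMUSG00000027520, chr1:63273265-63314576, plus strand), expressed from the paternal copy and known to affect growth and feeding, fell with induction and rose over time. It was at 164, 157, 134 and 156 CPM in C1, 59.8, 57.4, 85.7 and 68.9 CPM in C1M and 79, 74.2, 82 and 67.6 CPM in C1H, and the induced fractions did not overlap with C1 (-1.16 ± 0.10, adjusted p = 2.34e-18 in C1M, and -1.01 ± 0.099, adjusted p = 1.63e-15 in C1H). At day 4 Zdbf2 stood at 287, 298, 332 and 284 CPM in C1T, 185, 197, 180.2 and 218 CPM in C1MV and 229, 237, 203 and 205 CPM in C1MDT. Zdbf2 was at 183, 232, 201 and 208 CPM in C1HV and 172, 170.3, 238 and 207 CPM in C1HDT. Zdbf2 rose over the 4 days by 0.98 ± 0.091 in C1T and by 1.38 to 1.67 in the induced fractions, and lay below C1T at day 4, with log2 fold changes from -0.63 to -0.46 (edgeR adjusted p of at most 4.53e-06).

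Nnat (ENSMUSG00000067786, chr2:157560078-157562522, plus strand), a small membrane protein expressed from the paternal copy in neural and endocrine tissue, rose strongly over time. It was at 0.839, 1.7, 2.59 and 1.44 CPM in C1, 0.424, 2.13, 4.24 and 0.413 CPM in C1M and 0.681, 2.09, 2.93 and 2.94 CPM in C1H. At day 4 Nnat stood at 36.4, 33.7, 38.1 and 24.8 CPM in C1T, 63.7, 85.8, 96.6 and 89.8 CPM in C1MV and 126, 120.5, 119.7 and 115 CPM in C1MDT. Nnat was at 111, 71.1, 92 and 70.9 CPM in C1HV and 88, 125, 152 and 120.5 CPM in C1HDT. All induced libraries at day 4 lay above C1T. The rise was 4.36 ± 0.41 in C1T, and in the induced fractions 5.38 ± 0.30 (C1MV) and 5.33 ± 0.30 (C1HV) after withdrawal and 5.90 ± 0.28 (C1MDT) and 5.80 ± 0.28 (C1HDT) with the inducers kept (edgeR adjusted p of at most 1.39e-16). The level was above that of C1T by 1.31 ± 0.19 in C1MV and 1.83 ± 0.18 in C1MDT (adjusted p = 1.07e-06 and 4.87e-10), but none of the 4 differences in the change over time passed the test (0.97 to 1.54). The 5 neural markers (Sox1, Pax6, Nes and others) summed to 44.7 to 52.4 CPM in C1, 176 to 211 in C1T and 277 to 284 in C1MDT, and the part of neural cells in the Nnat values was not tested. Blcap, which contains Nnat in an intron on the other strand, ranged from 18.4 ± 2.38 CPM in C1H to 29.3 ± 2.27 CPM in C1HDT and was called in 2 of the 20 comparisons (C1HV vs C1H, 0.60, and C1HDT vs C1H, 0.66).

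Plagl1 (ENSMUSG00000019817, chr10:13060504-13131694, plus strand), a zinc-finger transcription factor that can arrest the cell cycle, fell over time. It was at 37.331, 26.6, 31.6 and 29.2 CPM in C1, 22.1, 25.2, 21.2 and 23.5 CPM in C1M and 22.8, 23.7, 26.7 and 20.2 CPM in C1H. At day 4 Plagl1 stood at 4.32, 7.07, 3.81 and 3.91 CPM in C1T, 7.66, 7.12, 6.9 and 7.13 CPM in C1MV and 1.15, 1.11, 0.279 and 1.38 CPM in C1MDT. Plagl1 was at 5.16, 8.53, 6.45 and 11.1 CPM in C1HV and 2.38, 4.77, 1.67 and 1.7 CPM in C1HDT. C1T replicate 2 was higher than the other C1T libraries, and the C1MDT libraries lay below every other library. The log2 fold change was -2.66 ± 0.25 in C1T, and in the induced fractions -1.67 ± 0.23 (C1MV) and -1.62 ± 0.23 (C1HV) after withdrawal and -4.57 ± 0.33 (C1MDT) and -3.19 ± 0.27 (C1HDT) with the inducers kept (edgeR adjusted p of at most 1.35e-09). Cells that kept the inducers had less Plagl1 than those without, with log2 fold changes of -2.90 ± 0.41 (adjusted p = 8.32e-09) in the middle and -1.57 ± 0.35 (adjusted p = 0.000276) in the high fraction. The summed pluripotency markers moved with this, at 1348 to 1700.5 CPM in C1MV and 1282 to 1495 in C1HV but 612 to 737 in C1MDT and 564 to 787 in C1HDT, and their part in the Plagl1 values was not tested.

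**Figure D3:**
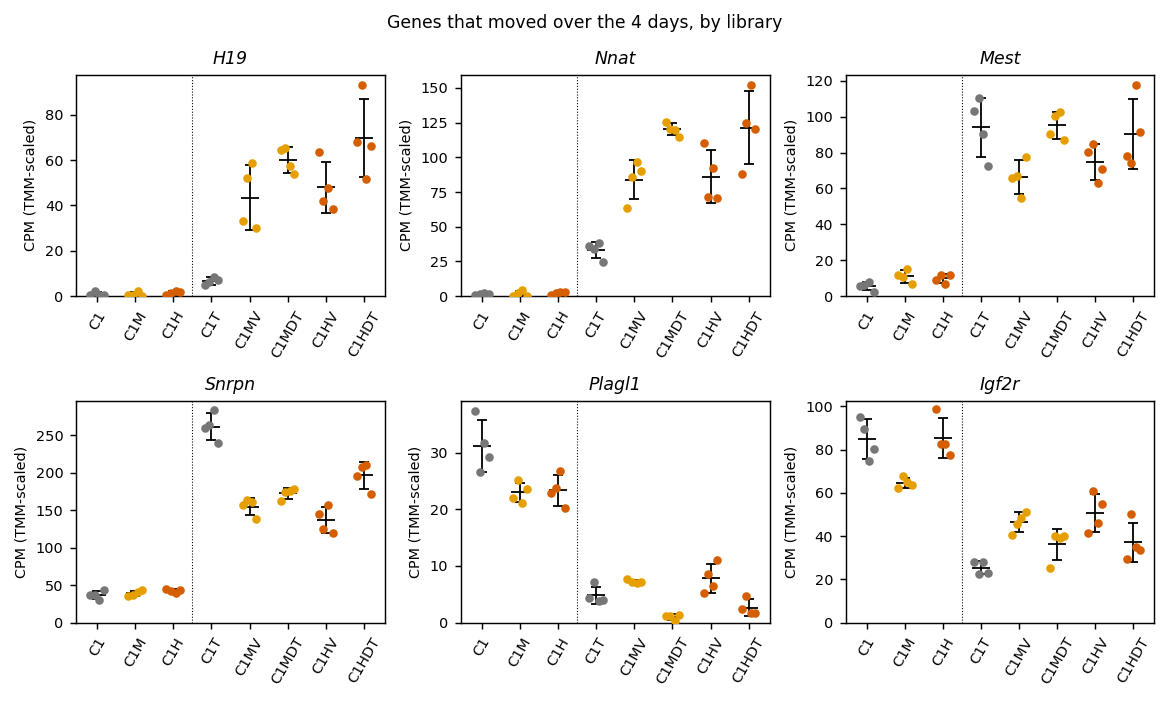
CPM of 6 imprinted genes that changed over the 4 days, in every library (points, 4 per group, grey without induction, orange for the middle and red for the high fraction), with the mean and SD as bars and day 0 left of the dotted line. H19 and Nnat are highest in the induced day 4 groups, Mest and Snrpn are high in all day 4 groups, and Plagl1 is lowest in C1MDT.

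The 3 paternally expressed genes Nnat, Mest and Plagl1 each start within or next to an imprinting control region, and their promoters are shown because the parental mark lies there. Capitals mark the letters TGCCGC on either strand, the core that ZFP57 binds when its CG is methylated. They occurred in 11.6% of 32851 promoter windows, and in 11 of the 35 listed genes with a promoter sequence (31.4%), namely Commd1, Grb10, Igf2, Meg3, Mest, Nap1l5, Nnat, Plagl1, Snrpn, Zdbf2 and Zim1. Some genes have several windows, and by window the share was 23.1% of 52. A match is a description, not a site. The windows are on GRCm38.p6: chr2:157559828-157560127, plus strand for Nnat, chr6:30737800-30738099, plus strand for the Mest window with most matches, and chr10:13090582-13090881, plus strand for Plagl1.
Nnat promoter: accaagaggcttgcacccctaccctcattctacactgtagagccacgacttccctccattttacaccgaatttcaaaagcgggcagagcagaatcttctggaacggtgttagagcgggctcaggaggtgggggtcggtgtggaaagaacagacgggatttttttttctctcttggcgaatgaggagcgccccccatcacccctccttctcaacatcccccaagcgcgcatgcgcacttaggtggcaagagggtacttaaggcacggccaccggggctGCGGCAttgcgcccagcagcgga
Mest promoter: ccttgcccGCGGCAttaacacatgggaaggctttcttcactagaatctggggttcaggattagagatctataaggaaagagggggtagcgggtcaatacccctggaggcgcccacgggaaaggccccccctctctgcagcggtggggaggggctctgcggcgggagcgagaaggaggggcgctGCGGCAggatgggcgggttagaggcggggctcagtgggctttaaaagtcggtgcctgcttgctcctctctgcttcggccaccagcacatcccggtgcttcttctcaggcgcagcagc
Plagl1 promoter: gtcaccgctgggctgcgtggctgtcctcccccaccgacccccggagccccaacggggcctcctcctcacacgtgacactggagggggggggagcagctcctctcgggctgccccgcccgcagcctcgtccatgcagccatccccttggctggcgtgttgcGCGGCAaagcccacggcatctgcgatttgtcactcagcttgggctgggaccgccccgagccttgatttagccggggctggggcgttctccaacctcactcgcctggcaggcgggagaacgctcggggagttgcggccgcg

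The Snrpn/Ube3a cluster is the one whose loss on the paternal copy causes Prader-Willi syndrome in humans, and Snrpn and Mkrn3 rose in all 5 comparisons over time. Snrpn (ENSMUSG00000102252, chr7:59982495-60140219, minus strand), an Sm protein of the spliceosome, was at 36.1, 36.2, 30.6 and 43.1 CPM in C1, 35.2, 37.2, 41.1 and 42.9 CPM in C1M and 45.3, 41.8, 39.9 and 43.3 CPM in C1H. At day 4 Snrpn stood at 259.9, 263, 283 and 239.44 CPM in C1T, 157, 163, 160.2 and 138 CPM in C1MV and 162, 174, 176 and 178 CPM in C1MDT. Snrpn was at 145, 125, 157 and 119.6 CPM in C1HV and 195, 207, 211 and 172 CPM in C1HDT. No induced library reached C1T, and the rise of 2.84 ± 0.10 in C1T exceeded those in the induced fractions, with tested differences of -0.85 ± 0.15 (C1MV) and -1.15 ± 0.15 (C1HV) after withdrawal and -0.70 ± 0.15 (C1MDT) and -0.64 ± 0.15 (C1HDT) with the inducers kept (edgeR adjusted p of at most 0.000317). Its exons overlap those of Snurf and Gm38393 on the same strand, so reads may be split. Ndn, a MAGE-family protein, was at 15.9, 14.1, 16.1 and 10.5 CPM in C1, 13.2, 19.5, 17.9 and 21.5 CPM in C1M and 17, 14.6, 13.9 and 15.1 CPM in C1H. At day 4 Ndn stood at 37.9, 42, 23.8 and 20.2 CPM in C1T, 27.4, 23.2, 28.3 and 24.2 CPM in C1MV and 27.1, 20.6, 20.9 and 27.2 CPM in C1MDT. Ndn was at 29.4, 17.6, 19.3 and 24.7 CPM in C1HV and 15.6, 25.3, 24.3 and 25.9 CPM in C1HDT. It rose by 1.16 ± 0.20 in C1T (adjusted p = 1.93e-07), by 0.52 ± 0.18 in C1MV, 0.58 ± 0.20 in C1HV and 0.57 ± 0.19 in C1HDT (edgeR adjusted p of at most 0.0138), while C1MDT vs C1M did not pass the test (log2 fold change 0.39 ± 0.18, adjusted p = 0.0633). Ndn lost the call in C1MV vs C1M without C1M replicate 1 (adjusted p = 0.0792). Ndn lost the call in C1HV vs C1H without C1HV replicate 1 (adjusted p = 0.111). The change in C1MDT differed from that in C1T by -0.77 ± 0.27 (adjusted p = 0.0265). Ndn lost the call for the change of C1MDT against that of C1T without any one of C1 replicate 4, C1M replicates 2 and 4, C1T replicates 1 and 2 and C1MDT replicates 2 and 3 (adjusted p from 0.0519 to 0.161).

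Peg12, a member of the FRAT family that binds GSK3, was at 5.45, 1.7, 4.67 and 6.22 CPM in C1, 3.82, 2.48, 2.28 and 3.71 CPM in C1M and 5.11, 2.79, 4.4 and 2.52 CPM in C1H. At day 4 Peg12 stood at 2.4, 3.75, 3.34 and 0.652 CPM in C1T, 4.03, 5.62, 6.9 and 6.42 CPM in C1MV and 6.34, 5.53, 8.09 and 4.81 CPM in C1MDT. Peg12 was at 5.16, 1.71, 4.73 and 3.25 CPM in C1HV and 6.8, 7.63, 8.37 and 4.76 CPM in C1HDT. It was higher than C1T by 1.07 ± 0.41 in C1MV, 1.204 ± 0.39 in C1MDT and 1.32 ± 0.39 in C1HDT, and the comparison of C1HV with C1T did not pass (log2 fold change 0.50 ± 0.46, adjusted p = 0.466). Peg12 lost the call in C1MV vs C1T without any one of C1T replicates 1 and 4 and C1MV replicates 2, 3 and 4 (adjusted p from 0.0559 to 0.128). Peg12 lost the call in C1MDT vs C1T without any one of C1T replicate 4 and C1MDT replicate 3 (adjusted p from 0.0514 to 0.0692). Magel2, another MAGE-family gene, had 3, 13 and 23 reads in C1, C1M and C1H, and 12, 3, 2, 2 and 3 reads in C1T, C1MV, C1MDT, C1HV and C1HDT. Its level was 2.12, 0.709, 0.652 and 1.65 CPM in C1M, 1.36, 1.74, 3.66 and 1.68 in C1H and 0.959, 2.91, 1.43 and 0 in C1T. With no library above 3 reads in C1 and the induced day 4 groups, the fall from C1H to C1HDT was at least 1.79-fold. Mkrn3, a ring-finger protein that delays puberty, ranged from 13.8 ± 1.29 CPM in C1 to 29.985 ± 5.92 CPM in C1HDT and rose over the 4 days in all 5 comparisons (0.59 to 0.88). Ube3a, a ubiquitin ligase for which the maternal copy alone is used mainly in neurons, ranged from 186 ± 6.98 CPM in C1MV to 271 ± 22.8 CPM in C1 and fell with induction at day 0, with log2 fold changes of -0.53 ± 0.079 in C1M and -0.34 ± 0.078 in C1H (adjusted p = 1.72e-08 and 0.000269).

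Grb10 (ENSMUSG00000020176, chr11:11930508-12038683, minus strand), an adaptor that dampens insulin and IGF receptor signalling, was at 9.23, 8.49, 13 and 8.14 CPM in C1, 12.3, 8.15, 11.7 and 7.43 CPM in C1M and 7.83, 9.41, 9.89 and 12.2 CPM in C1H. At day 4 Grb10 stood at 22.5, 23.7, 18.1 and 30.011 CPM in C1T, 15.7, 15, 7.63 and 15 CPM in C1MV and 15.6, 13.6, 16.5 and 19.6 CPM in C1MDT. Grb10 was at 10.3, 11.4, 8.17 and 9.1 CPM in C1HV and 18, 17.2, 18.8 and 15.3 CPM in C1HDT. It rose in C1T (log2 fold change 1.26 ± 0.23, adjusted p = 6.63e-07), in C1MDT (0.72 ± 0.22) and in C1HDT (0.82 ± 0.22), and the changes in C1MV (0.40 ± 0.23) and C1HV (-0.0092 ± 0.25) did not pass. Its neighbour Ddc, the decarboxylase that makes dopamine and serotonin, was at 34.8, 39.6, 37.4 and 36.9 CPM in C1, 28, 31.2, 28.3 and 35.9 CPM in C1M and 28.6, 28.9, 30.034 and 25.2 CPM in C1H. At day 4 Ddc stood at 34, 45.8, 40.023 and 36.5 CPM in C1T, 16.5, 14.2, 16.7 and 11.4 CPM in C1MV and 12.7, 12.5, 12 and 12.4 CPM in C1MDT. Ddc was at 9.81, 10.8, 9.89 and 11.7 CPM in C1HV and 11.6, 11.4, 13.4 and 18 CPM in C1HDT. Ddc fell in each induced fraction, while C1T vs C1 did not pass the test (log2 fold change 0.086 ± 0.15, adjusted p = 0.676). The tested differences from the change in C1T were -1.12 ± 0.23 (C1MV) and -1.51 ± 0.25 (C1HV) after withdrawal and -1.40 ± 0.23 (C1MDT) and -1.12 ± 0.23 (C1HDT) with the inducers kept (edgeR adjusted p of at most 5.15e-05). Ddc is imprinted mainly in the developing heart.

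Zrsr1, a retrogene related to a splicing factor subunit, lies within Commd1 on the other strand and was at 185, 178, 136 and 141 CPM in C1, 132, 139, 156 and 141 CPM in C1M and 156, 142, 162 and 164 CPM in C1H. At day 4 Zrsr1 stood at 62.3, 59.5, 68.6 and 56.1 CPM in C1T, 66.9, 59.2, 69.7 and 75.6 CPM in C1MV and 54.2, 66.7, 54.1 and 60.9 CPM in C1MDT. Zrsr1 was at 68.2, 69.9, 74.8 and 67.6 CPM in C1HV and 63.9, 54.9, 45.6 and 55.8 CPM in C1HDT. It fell in every fraction, from -1.08 ± 0.10 in C1MV to -1.49 ± 0.10 in C1HDT (edgeR adjusted p of at most 7.91e-19), and no day 4 library reached day 0. Commd1 ranged from 12.7 ± 3.3 CPM in C1 to 18.5 ± 1.27 CPM in C1M and passed the test in 1 comparison, C1M vs C1 (log2 fold change 0.56 ± 0.22, adjusted p = 0.0465). Commd1 lost the call in C1M vs C1 without any one of C1 replicates 1, 2 and 4 and C1M replicates 1, 3 and 4 (adjusted p from 0.0671 to 0.165), and also with DESeq2. Annotated exons of Zrsr1 and Commd1 overlap, so without strand in the counting their reads could not be told apart. Commd1 also shares its strand with the overlapping Gm28048.

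Gnas (ENSMUSG00000027523, chr2:174284320-174346744, plus strand), which encodes the stimulatory G protein α subunit and from other promoters maternal and paternal transcripts that share its 3′ exons, was at 199, 211, 203 and 181 CPM in C1, 221, 185, 211 and 206 CPM in C1M and 156, 169, 205 and 159 CPM in C1H. At day 4 Gnas stood at 343, 325, 316 and 326 CPM in C1T, 314, 305, 288 and 368 CPM in C1MV and 379, 389, 285 and 335 CPM in C1MDT. Gnas was at 344, 356, 369 and 353 CPM in C1HV and 369, 324, 324 and 337 CPM in C1HDT. It rose in each of the 5 comparisons over time, from 0.63 ± 0.08 to 1.04 ± 0.081, and the 3′ counts cannot separate its transcripts. Impact, an inhibitor of the kinase GCN2, was at 159.8, 172, 148 and 171 CPM in C1, 118, 126, 125 and 114 CPM in C1M and 103, 114, 111 and 117 CPM in C1H. At day 4 Impact stood at 209.6, 196, 213 and 209 CPM in C1T, 209.5, 187, 210.0 and 188 CPM in C1MV and 149.9, 175, 166 and 177 CPM in C1MDT. Impact was at 226, 241, 217 and 230.2 CPM in C1HV and 136, 143, 170.0 and 143 CPM in C1HDT. It fell with induction at day 0 (-0.43 ± 0.085 in C1M, -0.55 ± 0.086 in C1H) and was lower where the inducers were kept than where they were withdrawn (log2 fold change -0.25 ± 0.081, adjusted p = 0.0244 in the middle and log2 fold change -0.63 ± 0.082, adjusted p = 4.21e-10 in the high fraction). Impact lost the call in C1MDT vs C1MV without any one of C1MV replicates 1 and 3 and C1MDT replicates 1 and 3 (adjusted p from 0.0634 to 0.125), and also when only those groups were fitted. Nap1l5, a nucleosome assembly protein relative, was at 4.8, 4.16, 3.34 and 6.52 CPM in C1T and 2.58, 0, 1.29 and 3.25 CPM in C1HV and was called in 1 comparison, C1HV vs C1T (log2 fold change -1.39 ± 0.54, adjusted p = 0.0409). Nap1l5 lost the call in C1HV vs C1T without any one of C1T replicates 1, 2 and 4 and C1HV replicates 2 and 3 (adjusted p from 0.0578 to 0.177), and also with scaling by library size alone, with DESeq2 and without the filter on low counts. In its other groups it was at 2.94, 3.39, 1.56 and 0.479 CPM in C1, 1.7, 0.355, 0.977 and 2.89 CPM in C1M and 2.04, 2.44, 2.56 and 0.84 CPM in C1H, and 2.01, 2.25, 2.18 and 2.85 CPM in C1MV, 2.31, 4.79, 3.63 and 1.38 CPM in C1MDT and 3.06, 0.954, 4.19 and 3.74 CPM in C1HDT. Trappc9, of a vesicle-tethering complex, ranged from 23 ± 4.09 CPM in C1T to 42.9 ± 0.883 CPM in C1 and fell in C1T vs C1 (log2 fold change -0.88 ± 0.16, adjusted p = 7.14e-07).

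By parental copy, the genes divided as follows. Of the 17 maternally expressed genes tested, 7 rose and 4 fell in C1T vs C1, and of the 21 paternally expressed ones 11 rose and 5 fell (all genes, 24.4% and 24.9%). In C1MDT vs C1M the counts were 9 and 2 for the maternal and 11 and 6 for the paternal genes (all genes, 24.5% and 27.9%), and in C1HDT vs C1H 9 and 1, and 12 and 7 (all genes, 26.3% and 29.4%). At day 0, 4 maternal genes rose and 3 fell in C1M, and 2 paternal genes rose and 5 fell, where 14.3% of all genes rose and 12% fell. The median log2 fold change in C1M vs C1 was 0.11 for the maternal and -0.18 for the paternal genes, beside 0.056 for all genes. In C1T vs C1 these medians were 0.72 and 0.81. Among the 9 maternal genes that are imprinted in most tissues, 3 rose and 1 (Igf2r) fell in C1M. The 9 tested genes in which imprinting is limited to some tissues had medians of 0.33 in C1T vs C1 and 0.25 in C1MDT vs C1M. The difference between the parental classes was not tested.

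**Figure D4:**
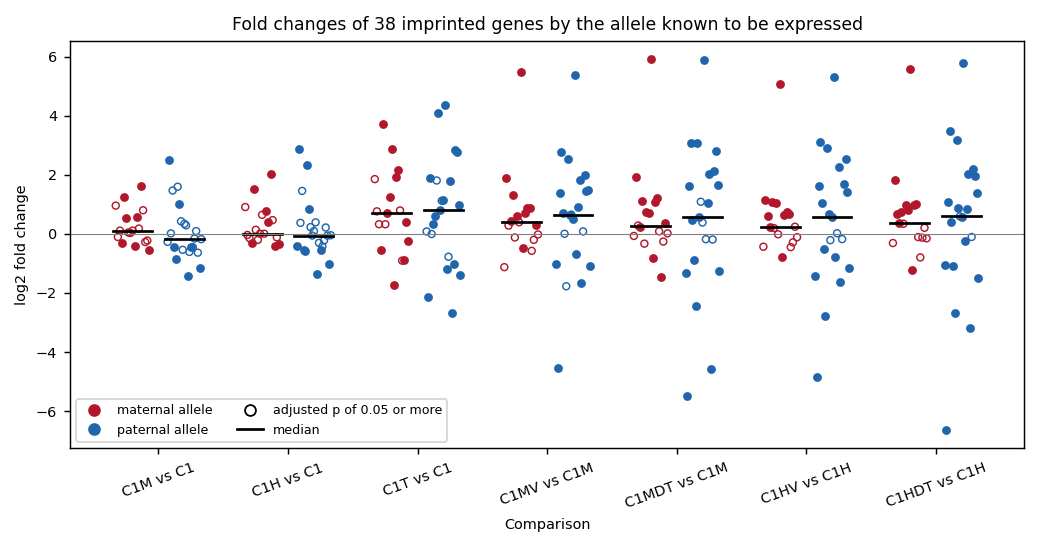
log2 fold change (y axis) of the 38 tested imprinted genes in 7 comparisons (x axis), split by the allele known to be expressed (red maternal, blue paternal). Filled points passed an edgeR adjusted p of 0.05 and bars are medians, which in C1T vs C1 stand at 0.72 and 0.81.

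At day 4 the groups were also compared with C1T, which had never been induced. In C1MV vs C1T 10 genes were higher and 14 lower (30.2% of all genes called), and in C1MDT vs C1T 8 and 13 (33.4%). In C1HV vs C1T 6 were higher and 13 lower (28%), and in C1HDT vs C1T 8 and 15 (33.5%). These 4 comparisons share the C1T libraries. A change over time that differed from that in C1T was found for 18 genes in C1MV (9 larger and 9 smaller or more negative, 22.5% of all genes called), 18 in C1MDT (7 and 11, 24.4%), 18 in C1HV (8 and 10, 21.9%) and 15 in C1HDT (6 and 9, 25.2%). Between the fractions at day 4, edgeR called 0 listed genes in C1HV vs C1MV and 0 in C1HDT vs C1MDT, beside 0.00654% and 0% of all genes. At an unadjusted p under 0.05 there were 8 and 3, and DESeq2 called 0 in both.

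Keeping the inducers against withdrawing them changed 10 genes in the middle fraction (6 higher and 4 lower, where 6.64% and 5.98% of all genes were and 12.6% were called in all) and 13 in the high fraction (7 and 6, 9.06%, 6.89% and 15.9%). Without C1HV replicate 3 the count in the high fraction was 8. The genes called in both were Meg3, Mirg, Nnat and Peg10 (higher) and Impact, Phlda2 and Plagl1 (lower), and these 2 comparisons share no library. The share of all genes called in both was not counted, so this overlap has no value to be set against. Meg3 was higher by 0.39 ± 0.076 (adjusted p = 0.000106) and 0.35 ± 0.076 (adjusted p = 0.000406) in the middle and the high fraction, and Nnat by 0.52 ± 0.16 (adjusted p = 0.024) and 0.47 ± 0.16 (adjusted p = 0.0387). Mest, Usp29 and Kcnq1ot1 were called only in the middle fraction and H19, Grb10, Snrpn, Dio3, Igf2r and Zrsr1 only in the high fraction, and whether the fractions differ in this was not tested. Snrpn was higher in C1HDT than in C1HV by 0.51 ± 0.088 (adjusted p = 1.98e-06), and Kcnq1ot1 was lower in C1MDT than in C1MV (-0.89 ± 0.22, adjusted p = 0.00653). In C1MDT vs C1MV the call was lost for Mirg without C1MDT replicate 3 (adjusted p = 0.11), and for Nnat without any one of C1MV replicate 1 and C1MDT replicates 1 and 3 (adjusted p from 0.0572 to 0.0866). In C1MDT vs C1MV the call was lost for Impact without any one of C1MV replicates 1 and 3 and C1MDT replicates 1 and 3 (adjusted p from 0.0634 to 0.125), and also when only those groups were fitted, and for Phlda2 without any one of C1MV replicate 3 and C1MDT replicate 2 (adjusted p from 0.065 to 0.14). In C1MDT vs C1MV the call was lost for Usp29 without any one of C1MV replicates 1 and 3 and C1MDT replicate 2 (adjusted p from 0.0657 to 0.0928). In C1HDT vs C1HV the call was lost for Mirg without any one of C1HV replicate 3 and C1HDT replicates 3 and 4 (adjusted p from 0.063 to 0.165), and also with scaling by library size alone, and for Nnat without any one of C1HV replicates 2, 3 and 4 and C1HDT replicates 2, 3 and 4 (adjusted p from 0.0593 to 0.138), and also with scaling by library size alone. In C1HDT vs C1HV the call was lost for H19 without any one of C1HV replicates 2, 3 and 4 and C1HDT replicates 1, 2 and 4 (adjusted p from 0.0771 to 0.16), and also with RLE size factors and with scaling by library size alone, and for Dio3 without any one of C1HV replicates 2 and 3 and C1HDT replicates 1, 2, 3 and 4 (adjusted p from 0.0599 to 0.365), and also without the filter on low counts and when only those groups were fitted. In C1HDT vs C1HV the call was lost for Igf2r without any one of C1HV replicate 2 and C1HDT replicate 1 (adjusted p from 0.0628 to 0.0959), and for Zrsr1 without any one of C1HV replicate 3 and C1HDT replicate 3 (adjusted p from 0.0833 to 0.129).

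Proteins that set, keep or erase the imprint were examined beside the list. Of 17 such genes, all tested, 8 fell in C1M vs C1, where 12% of all genes fell. In C1H vs C1, 1 rose and 9 fell (all genes, 13.8% and 12.1%). Those with the smallest adjusted p in C1M were Tet1 (-0.69 ± 0.075, adjusted p = 4e-13) and Tet2 (-0.82 ± 0.088, adjusted p = 6.08e-13), which oxidise 5-methylcytosine, and Uhrf1 (-0.98 ± 0.11, adjusted p = 2.57e-09) and Dnmt1 (-0.43 ± 0.087, adjusted p = 2.82e-05), which copy methylation. In C1T vs C1, 5 rose and 9 fell (all genes, 24.4% and 24.9%), among them the de novo methyltransferases Dnmt3a (4.11 ± 0.094, adjusted p = 1.88e-83) and Dnmt3b (4.23 ± 0.11, adjusted p = 6.29e-50), their cofactor Dnmt3l (4.40 ± 0.16, adjusted p = 7.44e-25), and Tet2 (-3.42 ± 0.11, adjusted p = 5.7e-48). In C1MV vs C1T, 3 were higher and 9 lower (all genes, 15.4% and 14.9%), with Dnmt3a at -2.38 ± 0.08, adjusted p = 1.26e-60 and the imprint keeper Zfp57 at -1.53 ± 0.15, adjusted p = 6.86e-14.

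Of 34 further imprinted genes, 26 were tested. In C1M vs C1, 3 rose and 4 fell (all genes, 14.3% and 12%), and in C1T vs C1, 9 rose and 8 fell (all genes, 24.4% and 24.9%), with a median of -0.15 beside 0.75 for the 38 listed genes and 0.0088 for all genes. Copg2, next to Mest, fell over time in C1T vs C1 (-1.28 ± 0.14, adjusted p = 5.84e-15), and Slc38a4, an amino acid transporter, rose with induction at day 0 (0.51 ± 0.087, adjusted p = 7.45e-07 in C1M). In the IGF pathway, 13 genes tested, 3 rose and 3 fell in C1T vs C1, against the same shares of all genes, and 8 rose in C1MV vs C1M, where 22% of all genes did. Igfbp5, a protein that binds IGFs, was higher in C1MV than in C1T (3.22 ± 0.29, adjusted p = 5.48e-19), as was the glypican Gpc3 (1.81 ± 0.30, adjusted p = 1.15e-07). Of 142 unlisted genes within 200 kb of the listed ones, 75 were tested, and 20 rose and 17 fell in C1T vs C1, with a median of 0.14. In C1M vs C1, 9 of these neighbours rose and 12 fell. These are 49.3% and 28% of the 75, beside 49.2% and 26.3% of all genes called in either direction.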

How the data were processed

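RNA of sorted or differentiated cells was measured in 32 libraries (QuantSeq 3′ mRNA-Seq FWD, 100 ng of RNA). Per the labels and the study's methods, the authors removed adapters and low-quality bases with bbduk, mapped reads to mm10 by STAR and deposited raw counts from htseq-count, which are uniquely aligned reads per Ensembl 93 gene. The strand setting of the counting is not given in the sources used here. Lines that name no gene were left out: reads aligned to several places made up 49.4 to 56.4% of all lines' counts, those outside genes 4.72 to 11.2% and ambiguous ones 0.234 to 0.29%.

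Here, genes with at least 1 CPM in 4 or more libraries (15280) were fitted in 1 model of 8 groups with edgeR 4.0.16 in R 4.3.3 (TMM factors, robust quasi-likelihood test), and 20 comparisons were tested at a Benjamini-Hochberg adjusted p under 0.05 over all genes. Fold changes of genes with few reads depend on the prior count, and 3 reads per library were taken as the floor. The script was tested on simulated counts. Alternatives were DESeq2 1.42.0, other scaling and filters, the replicate number as a block and leaving out each library. Gene positions and overlaps came from GENCODE M21, and promoters and microRNAs from RefSeq on GRCm38.p6, with a promoter for 35 of the 43 genes.

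The members, the marker and pathway lists, the parental alleles and the clusters were chosen with earlier results of these data known. Values in every library are given for the 29 genes with an adjusted p under 0.05, an absolute log2 fold change of at least 1 and no overlap of libraries in at least 1 comparison, except that groups of Igf2 and Magel2 near the floor are given as summed reads. Of other lists at most 4 members with the smallest adjusted p are named. No p is adjusted over the list alone, and no test was made over the members together. The labels call the libraries biological replicates, and since all come from 1 cell line, p-values measure the spread between these samples of that line. Floors cover counting error only.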

Additional observations from a re-analysis of the deposited data

Results flagged for a closer look

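Of the 232 groups of 4 libraries of the 29 genes given by library, those at the floor (of Igf2, Dio3 and Magel2) were not checked. Among the rest, 12 held 1 library that stood apart from the others by Dixon's test, and chance alone flags about 1 group in 20. H19 in C1 replicate 2 was at 2.26 CPM, while the other libraries of C1 lay from 0.419 to 0.519 CPM. Igf2 in C1HV replicate 2 was at 2.84 CPM, while the other libraries of C1HV lay from 0.516 to 0.86 CPM. Kcnq1ot1 in C1MV replicate 4 was at 106 CPM, while the other libraries of C1MV lay from 49.2 to 58.1 CPM. Kcnq1ot1 in C1MDT replicate 1 was at 48.4 CPM, while the other libraries of C1MDT lay from 29.9 to 33 CPM. Slc22a18 in C1M replicate 4 was at 4.95 CPM, while the other libraries of C1M lay from 3.82 to 3.91 CPM. Ascl2 in C1HV replicate 1 was at 4.13 CPM, while the other libraries of C1HV lay from 5.59 to 5.85 CPM. Igf2r in C1MDT replicate 1 was at 25.4 CPM, while the other libraries of C1MDT lay from 39.1 to 40.2 CPM. Peg10 in C1HDT replicate 3 was at 56.5 CPM, while the other libraries of C1HDT lay from 70.1 to 71.6 CPM. Grb10 in C1MV replicate 3 was at 7.63 CPM, while the other libraries of C1MV lay from 15 to 15.7 CPM. Plagl1 in C1T replicate 2 was at 7.07 CPM, while the other libraries of C1T lay from 3.81 to 4.32 CPM. Ndn in C1HDT replicate 1 was at 15.6 CPM, while the other libraries of C1HDT lay from 24.3 to 25.9 CPM. Magel2 in C1H replicate 3 was at 3.66 CPM, while the other libraries of C1H lay from 1.36 to 1.74 CPM.

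The change over 4 days differed from that in C1T in 37 results of these genes, with a tested difference of at least 1 on the log2 scale. All of these comparisons share the C1 and C1T libraries. H19 differed by 3.04 ± 1.11 (C1MDT) (edgeR adjusted p = 0.0385). H19 lost the call for the change of C1MDT against that of C1T without any one of C1 replicates 2, 3 and 4, C1M replicates 1 and 2 and C1T replicates 1 and 2 (adjusted p from 0.0514 to 0.294). Cdkn1c differed by -2.41 ± 0.38 (C1MV), -2.63 ± 0.38 (C1MDT), -2.66 ± 0.37 (C1HV) and -2.98 ± 0.36 (C1HDT) (edgeR adjusted p of at most 7.05e-08). Kcnq1ot1 differed by -1.48 ± 0.28 (C1MDT), -1.10 ± 0.27 (C1HV) and -1.69 ± 0.27 (C1HDT) (edgeR adjusted p of at most 0.00378). Igf2r differed by 1.25 ± 0.19 (C1MV) (edgeR adjusted p = 2.62e-08). Meg3 differed by -1.24 ± 0.11 (C1MV) and -1.31 ± 0.11 (C1HV) (edgeR adjusted p of at most 2.02e-14). Mirg differed by -1.28 ± 0.14 (C1MV), -1.44 ± 0.14 (C1HV) and -1.15 ± 0.14 (C1HDT) (edgeR adjusted p of at most 3.07e-12). Dio3 differed by -2.38 ± 0.60 (C1MV), -3.36 ± 0.65 (C1MDT), -2.71 ± 0.62 (C1HV) and -4.49 ± 0.71 (C1HDT) (edgeR adjusted p of at most 0.00119). C1HDT was at the floor for Dio3 and the other day 4 groups were near it, so these fitted values depend on the prior count. Mest differed by -1.56 ± 0.32 (C1MV), -1.01 ± 0.32 (C1MDT) and -1.19 ± 0.33 (C1HV) (edgeR adjusted p of at most 0.0133). Mest lost the call for the change of C1MDT against that of C1T without any one of C1 replicate 4 and C1M replicate 3 (adjusted p from 0.0696 to 0.0745). Peg10 differed by 1.00 ± 0.15 (C1MDT) (edgeR adjusted p = 7.61e-09). Grb10 differed by -1.27 ± 0.34 (C1HV) (edgeR adjusted p = 0.00262). Ddc differed by -1.12 ± 0.23 (C1MV), -1.40 ± 0.23 (C1MDT), -1.51 ± 0.25 (C1HV) and -1.12 ± 0.23 (C1HDT) (edgeR adjusted p of at most 5.15e-05). Plagl1 differed by -1.91 ± 0.50 (C1MDT) and 1.05 ± 0.37 (C1HV) (edgeR adjusted p of at most 0.028). Plagl1 lost the call for the change of C1HV against that of C1T without any one of C1 replicate 1, C1T replicates 1, 3 and 4 and C1HV replicates 2 and 4 (adjusted p from 0.0504 to 0.109). Snrpn differed by -1.15 ± 0.15 (C1HV) (edgeR adjusted p = 1.84e-10). Magel2 differed by -3.58 ± 1.34 (C1MV), -4.26 ± 1.37 (C1MDT), -4.58 ± 1.36 (C1HV) and -4.48 ± 1.28 (C1HDT) (edgeR adjusted p of at most 0.0395). Magel2 lost the call for the change of C1MV against that of C1T without any one of C1 replicates 1, 3 and 4, C1M replicates 1 and 4, C1T replicates 2 and 3 and C1MV replicates 1 and 3 (adjusted p from 0.053 to 0.172), and also with DESeq2 and without the filter on low counts. Magel2 lost the call for the change of C1MDT against that of C1T without C1T replicate 2 (adjusted p = 0.0832). Magel2 lost the call for the change of C1HV against that of C1T without C1T replicate 2 (adjusted p = 0.06). C1 and the induced groups at day 4 were at the floor for Magel2, so its fitted values depend on the prior count. Peg12 differed by 1.68 ± 0.57 (C1MV), 1.81 ± 0.56 (C1MDT) and 1.62 ± 0.55 (C1HDT) (edgeR adjusted p of at most 0.0222). Peg12 lost the call for the change of C1MV against that of C1T without any one of C1 replicate 4, C1T replicate 4 and C1MV replicate 3 (adjusted p from 0.0508 to 0.0658). Peg12 lost the call for the change of C1HDT against that of C1T without any one of C1 replicate 4 and C1T replicate 4 (adjusted p from 0.0556 to 0.063).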

How the results depend on the processing

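Of 349 gene results called by edgeR, 270 kept their call under every alternative run, and none of the 5697 recomputed values changed sign. The call was lost in 380 of them, 310 of which came from leaving out 1 library, 18 from DESeq2, 17 from scaling by library size alone, 16 from omitting the filter on low counts, 9 from a fit of only the groups compared, 6 from the replicate block, 3 from RLE size factors and 1 from requiring 1 CPM in all libraries. Most counts of listed genes called per comparison stayed within 1.5 times. The exceptions were C1H vs C1M, where the count of 1 became 4 in a fit of only the 2 groups (Meg3, Dio3 and Gnas were added) and 0 to 1 on leaving out single libraries. In C1MDT vs C1M the count fell from 28 to 18 with 1 CPM in all libraries, where fewer genes were tested. In C1HDT vs C1HV the count of 13 ranged from 8 (without C1HV replicate 3) to 14 (with DESeq2), and in C1HV vs C1MV the count ranged from 0 to 1 (Usp29, without C1MV replicate 4). For these exceptions other than the stricter filter the cause was not tested. With the replicate block the counts were 13 in C1M vs C1, 16 in C1H vs C1 and 27 in C1T vs C1, and no count moved by more than 1.5 times. The 6 calls lost were Commd1 in C1M vs C1, Dio3 in C1HDT vs C1T, Kcnq1ot1 in C1HV vs C1H, Mest in C1HV vs C1T, Peg10 in C1HDT vs C1H and Tssc4 in C1MV vs C1M. Libraries with the same number showed no detectable shared deviation from their group means (mean correlation -0.00163). The mean for different numbers, 0.000545, follows from that value because deviations were taken from group means. Whether the numbers pair the samples cannot be decided from these values. Igf2, Magel2, Asb4 and Dio3 at day 4 lie near 3 reads per library, which limits what their values can show.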
